A study of Mus musculus with 2 samples.

Results

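In the calf muscle (gastrocnemius) of the mouse, 4 or more distal open regions lay in a row with short gaps in 249 stretches of the genome, which together held 1166 of 15864 distal open regions, or 7.35% (exact 95% binomial interval 6.95 to 7.77). The interval covers counting error only, since regions enter a stretch together and are not independent. The share also depended on the gap allowed. The assay was DNase-seq, in which DNase I cuts accessible DNA in isolated nuclei and dense cuts mark open sites. The samples were 2 libraries from male B6CASTF1/J mice aged 36 days, called replicate 1 and replicate 2. The labels give them as biological replicates from differently numbered males, under 1 donor entry. They formed 1 group. This strain is the first-generation hybrid of C57BL/6J and CAST/EiJ, and every animal carried both genomes. No other strain, age, tissue or treatment was compared.

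A merged region was made from overlapping peaks of both libraries, and 63849 were found, 32662 of them with a peak of each library. Of these, 15864 lay over 1 kb from every start site in GENCODE mouse release 21 and are called distal. Distal regions with gaps of 12500 bp or less were joined, and a joined stretch with 4 or more regions was kept. The stretches were thus chosen by the positions of peaks in these libraries and ordered by the peaks' values, so the counts and ranks are given as descriptions and no test was run on them. The value of a peak is the authors' signal value. Its scaling is not given in the sources used here, so values were compared within a library only. The sum over a stretch was ranked in each library, and the stretches were ordered by the worse of both ranks. Pairs of values are for replicate 1 and then for replicate 2.

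Distal open regions include enhancers, silencers and insulators, the elements that bind transcription factors away from the promoter and change the rate of transcription at a gene that may be far along the chromosome. Enhancers that lie in dense groups are often found around genes that fix the identity or the state of a cell, such as those for transcription factors, clock proteins and signalling inhibitors. In muscle tissue the fibres hold most of the cytoplasm, but nuclei also come from satellite cells, fibroblasts, endothelium, nerve sheath and blood cells. DNase-seq of whole tissue cannot tell a site open in few nuclei from a site weakly open in many.

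The labelled tissue was checked through promoter peaks of marker genes. Of 12 genes of the skeletal muscle fibre, 7 had a promoter peak in both libraries, among them Ckm, Acta1, Ryr1 and Myod1. Myh1, Myh2, Myh4, Tnnt3 and Pvalb had no promoter peak in both. None of 4 liver, 4 heart, 4 neuron and 4 blood markers had one, against 3 of 4 fibroblast markers and 2 of 4 endothelial markers.

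Sequences at the heart of 5 of the strongest stretches are shown here as examples. Each is the highest region of its stretch, up to its central 300 bp, read from the GRCm38 (mm10) reference genome on the + strand, 5′ to 3′. Capitals mark matches to a searched motif on either strand, or, in the stretch beside Ctc1, the whole tRNA gene. The matches are letter matches, not measured sites.
Nr1d1 intron, chr11:98773851-98774150: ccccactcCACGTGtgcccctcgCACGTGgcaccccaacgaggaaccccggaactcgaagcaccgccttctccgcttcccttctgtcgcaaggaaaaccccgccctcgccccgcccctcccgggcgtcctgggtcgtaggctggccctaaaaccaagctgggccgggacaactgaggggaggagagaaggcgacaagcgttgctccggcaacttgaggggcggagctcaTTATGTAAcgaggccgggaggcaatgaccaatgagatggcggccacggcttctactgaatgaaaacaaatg
Ltbp4 intron, chr7:27330971-27331270: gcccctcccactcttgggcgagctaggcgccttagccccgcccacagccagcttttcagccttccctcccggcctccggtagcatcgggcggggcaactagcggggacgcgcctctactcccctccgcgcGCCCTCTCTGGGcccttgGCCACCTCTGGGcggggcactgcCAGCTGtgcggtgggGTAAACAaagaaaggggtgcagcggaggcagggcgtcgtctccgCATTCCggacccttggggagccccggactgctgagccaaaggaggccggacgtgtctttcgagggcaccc
Between Chd2 and Fam174b, chr7:73618211-73618510: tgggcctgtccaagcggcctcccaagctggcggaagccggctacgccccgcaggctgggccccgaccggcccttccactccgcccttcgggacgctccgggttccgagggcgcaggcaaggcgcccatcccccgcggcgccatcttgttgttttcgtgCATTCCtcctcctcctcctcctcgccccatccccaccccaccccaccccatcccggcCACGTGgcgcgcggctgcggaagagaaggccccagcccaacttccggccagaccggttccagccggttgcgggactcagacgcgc
Between Ctc1 and Aurkb, chr11:69041701-69041920: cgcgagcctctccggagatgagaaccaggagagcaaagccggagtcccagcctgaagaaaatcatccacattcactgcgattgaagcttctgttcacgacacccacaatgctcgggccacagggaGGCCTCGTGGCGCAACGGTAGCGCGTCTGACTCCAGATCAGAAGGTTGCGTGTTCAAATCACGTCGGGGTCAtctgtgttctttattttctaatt
Between Fbxo31 and Map1lc3b, chr8:121585421-121585700: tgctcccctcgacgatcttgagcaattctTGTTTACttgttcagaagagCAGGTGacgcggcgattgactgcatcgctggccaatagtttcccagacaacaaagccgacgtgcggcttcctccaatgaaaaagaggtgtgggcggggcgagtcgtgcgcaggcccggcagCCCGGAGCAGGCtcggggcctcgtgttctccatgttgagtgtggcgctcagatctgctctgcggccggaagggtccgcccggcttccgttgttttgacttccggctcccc

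The Nr1d1 sequence held 2 copies of the E-box CACGTG and 1 D-box (TTANGTAA), and all 3 lay in footprints that both libraries shared. Footprints are short stretches within an open region that are protected from DNase I, as called by the authors. CACGTG is a site that the clock activators Clock and Bmal1 bind, among other factors, and the D-box one that Dbp and its relatives bind. Which factors were bound here was not measured. The Ltbp4 sequence held 1 MCAT motif (GGAATG, bound by Tead factors), 1 CAGCTG E-box (bound by MyoD and its relatives), 1 forkhead motif (TGTTTAC) and 2 matches to the core of the CTCF motif (CC, any 3 bases, AG, any 2 bases, GGC). Of these, the MCAT motif and 1 CTCF core lay in shared footprints. The sequence by Fbxo31 held 1 CAGGTG E-box, 1 forkhead motif and 1 CTCF core, and the CTCF core lay in a shared footprint. The Chd2 to Fam174b sequence held 1 CACGTG in a shared footprint and 1 MCAT motif outside one. The sequence by Ctc1 held the tryptophan tRNA gene n-TWcca7. Sequences of other leading stretches were read in the same way and are not printed. Among them, the one in Nfic held no searched motif. The matches in those by Socs3, within Gse1, between Krt78 and Krt8 and at Morn1 and Ski lay outside shared footprints. The CTCF core in the Kdm6b sequence lay in one.

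The stretches were small and mostly just over the limit of membership. Of the 249, 155 held 4 regions, 52 held 5, and 42 held more, up to 11. Their length was 1.28 to 54.9 kb with a median of 16.5 kb, and together they spanned 4.23 Mb, or 0.155% of the chromosomes. They held 10.4% of the summed value of all distal regions in replicate 1 and 10.1% in replicate 2. A stretch was rarely dominated by 1 region: the highest region supplied a median of 36.1% of the sum in replicate 1 and 35.8% in replicate 2. Just outside the limit lay 478 stretches with 3 regions, whose median sums were 7.55 and 5.48 in replicates 1 and 2, against 12.02 and 8.60 for the 155 stretches with 4. The largest gap joined was 12500 bp and the smallest not joined 12508 bp. Kept regions began 1001 bp from a start site, and the farthest region left out was at 1000 bp. One 3-region stretch on the X chromosome, chrX:169991141-169998420 in Mid1, had sums of 60.2 and 33.0, next to those of the leading member. In C57BL/6J mice Mid1 spans the boundary of the pseudoautosomal region.

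The order of the stretches was similar in both libraries. Sums ran from 4.17 to 62.6 in replicate 1, with a median of 13.8, and from 3.48 to 34.1 in replicate 2, with a median of 10.2. Spearman's rho of the sums between the libraries was 0.85 over the 249 stretches, which share library and depth and are no independent samples. The sums add over the same regions in both libraries, each with a peak of both, so some agreement is built in. The 20 highest stretches of replicate 1 and the 20 highest of replicate 2 had 13 in common, the 10 highest 7, and the 50 highest 34. By the mean value per region the 20 highest had 10 in common, and by the sum per kb of stretch 16. The 20 leading stretches held 17.03% of the value in stretches in replicate 1 and 16.1% in replicate 2.

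**Figure D1:**
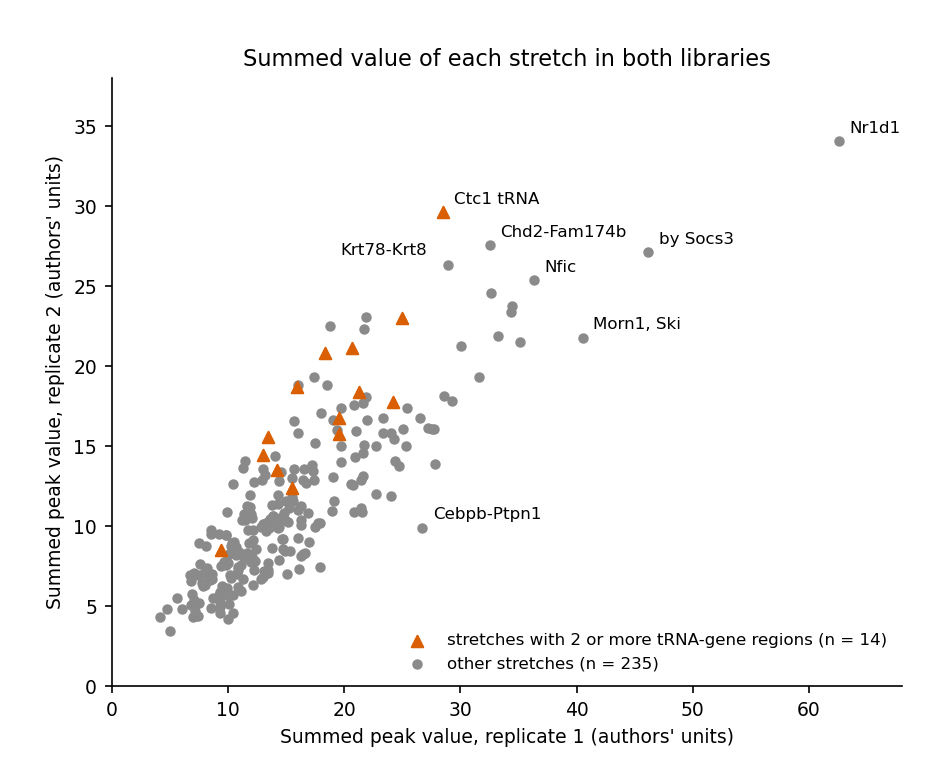
Summed peak value of each of the 249 stretches in replicate 1 (horizontal axis) and replicate 2 (vertical axis), in the authors' units, with 1 point a stretch; triangles are the 14 stretches with 2 or more regions that hold a tRNA gene. The Nr1d1 stretch stands apart at 62.6 and 34.1, and most triangles lie in the upper part of the cloud.

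The stretch at Nr1d1 was the highest in both libraries. Nr1d1 encodes REV-ERB alpha, a nuclear receptor that represses transcription of clock and metabolic genes. The stretch, chr11:98773801-98789200, held 6 regions in 15.4 kb with a sum of 62.6 in replicate 1 and 34.1 in replicate 2. The next stretch had 46.2 in replicate 1 and 27.1 in replicate 2. Its highest region, the one printed above, was intronic and lay 1133 bp from the nearest annotated start site, with values of 24.3 in replicate 1 and 10.6 in replicate 2. The other 5 regions were intergenic and lay upstream of Nr1d1, on the way to Msl1, which encodes a subunit of a histone acetyltransferase complex. Of these, the regions at 98783341 and 98786961 had values of 10.3 and 9.42 in replicate 1 and of 6.64 and 8.48 in replicate 2. The stretch held 23 shared footprints, the most of any of the 20 leading stretches. The gene's own promoter peak, outside the stretch by the rule, had values of 16.1 in replicate 1 and 10.4 in replicate 2.

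Several leading stretches lay at genes of other regulators of transcription. Here and below, leading stretches are grouped by what their genes do only to order the description. The share of such genes among all coding genes was not counted. The stretch in Nfic, which encodes a nuclear factor I protein, held 9 regions in 21.7 kb with sums of 36.4 in replicate 1 and 25.4 in replicate 2 (ranks 4 and 6). Its highest region had values of 9.69 and 7.92, while the lowest percentile among its 9 regions was 14.8 in replicate 1 and 25.3 in replicate 2, both in the same exonic region. The Kdm6b stretch, at a gene for a demethylase of histone H3 lysine 27, held 6 regions with sums of 34.4 and 23.4. All 6 of these lay within 1 kb of a start site in RefSeq, although none did in GENCODE. Mnt, whose product pairs with Max and opposes Myc, held 4 intronic regions in 7.08 kb with sums of 29.3 and 17.8. Its regions at 74832161 and 74838481 were high, with 17.1 and 9.67 in replicate 1 and 10.7 and 5.41 in replicate 2, and the other two were low, with percentiles of 24.95 and 37.1 in replicate 1 and 37.3 and 19.2 in replicate 2. Foxk1, which encodes a forkhead factor, held 6 intronic regions in 35.7 kb with sums of 25.4 and 17.4. Zfp503, a gene for a zinc-finger repressor, had 6 regions with sums of 31.6 and 19.3.

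Irf2bp2 had 3 stretches at or near it, and 3 more lay between Lrrc74a and Irf2bpl, its relative. Both groups were noticed after the values were seen. Irf2bp2 encodes a transcriptional corepressor. The stretch across it, chr8:126582641-126596454, held 9 regions with sums of 23.4 and 16.8, and ranked 33 and 35. A stretch of 4 regions that began 71.6 kb beyond the gene's start had larger sums in replicate 1, at 26.5, and nearly the same in replicate 2, at 16.8, and 1 of its regions had values of 13.2 and 8.75. The third, with 5 regions and sums of 21.5 and 10.9, lay on the other side, 40.1 kb from the gene. The 3 intergenic stretches between Lrrc74a and Irf2bpl followed each other with gaps of 14.6 and 14.8 kb, at 104, 79.2 and 43.7 kb from Irf2bpl and 5.30, 26.98 and 52.5 kb from Lrrc74a, with sums of 20.8, 21.6 and 25.3 in replicate 1 and of 17.6, 17.7 and 15.02 in replicate 2. The Irf2bpl promoter had values of 19.2 and 11.1, against promoter values of 4.51 and 7.85 at Irf2bp2.

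Stretches at signalling genes included the second of the order, with 7 intergenic regions from chr11:117930781-117963700 and sums of 46.2 and 27.1. It ended 2.38 kb from the 3′ end of Socs3, which encodes an inhibitor of cytokine receptors. Its highest region, at 117963461 and nearest to the gene, had values of 15.5 and 9.89. The region at 117949439 had 11.6 and 4.51, and the one between them had 5.28 and 2.44. Ltbp4, whose product binds latent TGF-beta in the matrix, held 8 regions with sums of 34.5 and 23.8, 5 in introns and 3 in exons. A stretch of 7 regions reached from within Morn1 to the 3′ end of Ski, whose product inhibits Smad proteins, with sums of 40.5 in replicate 1, where it ranked 3, and 21.8 in replicate 2, where it ranked 15. A further stretch of 4 regions lay 11.3 kb beyond the start of Ski, with sums of 16.3 and 8.12. The 5 regions of the stretch between Hes1, a target gene and effector of Notch, and Cpn2 had sums of 28.6 and 18.1. Hes1 was 104 kb away and Cpn2 68.02 kb.

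Fbxo31, which encodes the substrate receptor of a ubiquitin ligase, lay under a stretch of 38.5 kb with 7 regions and sums of 35.1 and 21.5. Its highest region, printed above, was beyond the start of Fbxo31 and 4.66 kb from Map1lc3b, the gene for the autophagy protein LC3B, and had values of 15.6 and 10.8. It counted as intronic because Gm20388, a read-through gene model of 4435 kb, covers it. The stretch with the most regions, 11, and the longest, at 54.9 kb, lay within Gse1 and had sums of 32.7 and 24.6. Its regions were even, with values of 1.79 to 5.86 in replicate 1 and 1.28 to 3.87 in replicate 2. The stretch between Chd2, which encodes a chromatin remodeller, and Fam174b was of the opposite kind. Of its 4 regions, the printed one had values of 14.0 and 18.1, which was 43.0% of the sum in replicate 1 and 65.6% in replicate 2, and ranked the stretch 10 and 3. Chd2 was 53.4 kb away and Fam174b 122 kb.

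A further 5 of the leading stretches lay at other kinds of gene. Between the keratin genes Krt78 and Krt8 were 7 intergenic regions with sums of 28.97 and 26.3. Neither keratin gene had a promoter peak in either library. Between Tex44 and Ptma, the gene for prothymosin alpha, were 6 with sums of 30.03 and 21.3, of which 1 region had 13.5 and 9.05. Tex44 had no promoter peak, while Ptma, at 83.8 kb, had promoter values of 11.9 and 6.74. The other 3, at Ctc1, Plxdc1 and Btn1a1, held tRNA genes and are described below.

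**Figure D2:**
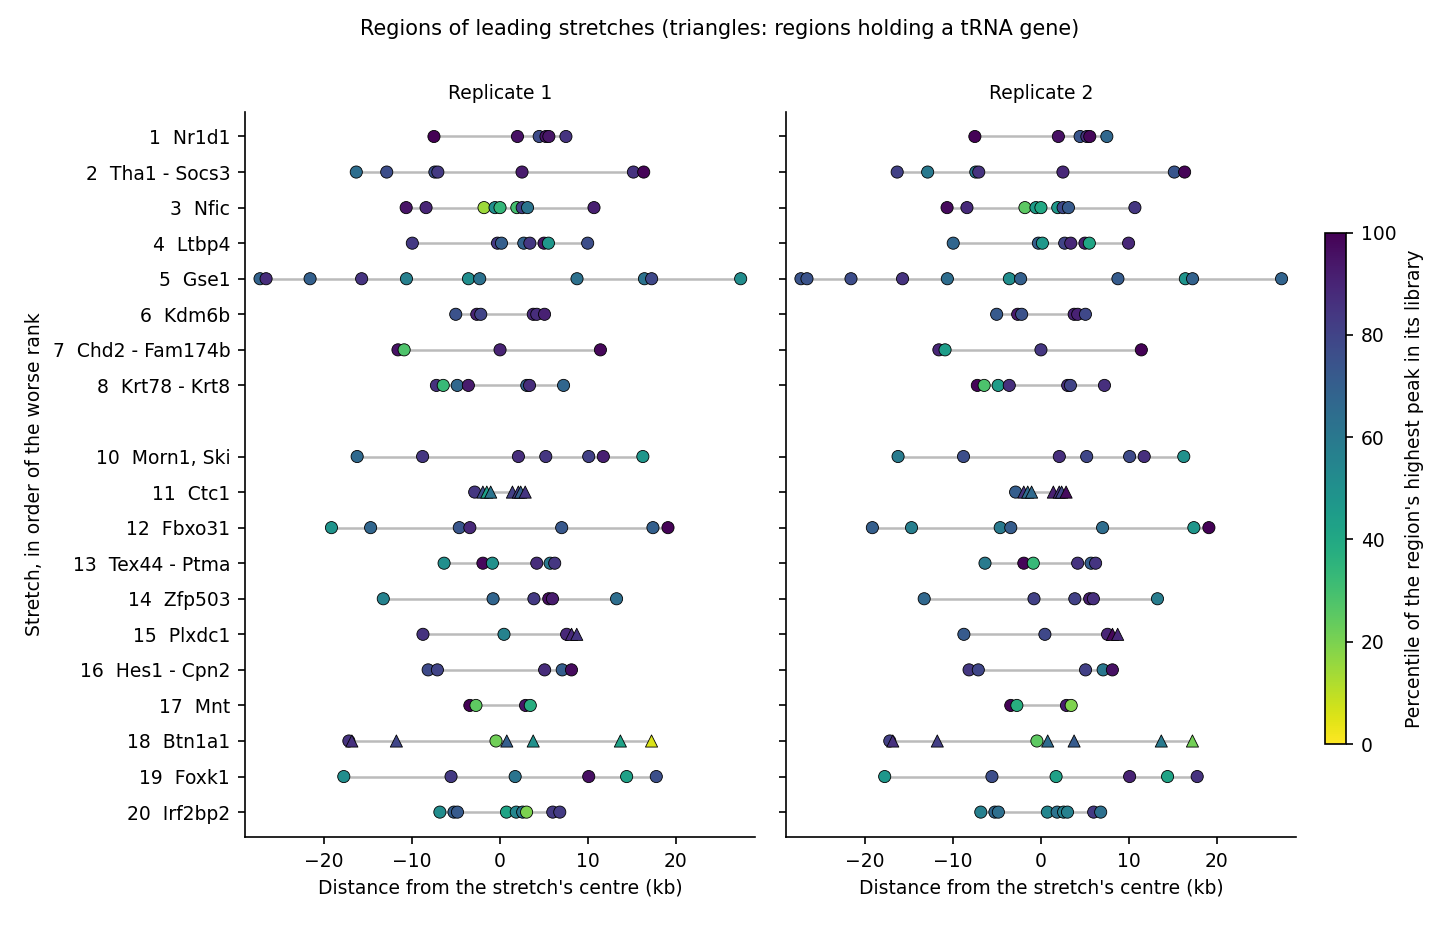
Regions of leading stretches (1 of the 20 is not shown) in replicate 1 (left) and replicate 2 (right), with 1 row a stretch in order, named by the coding genes under it or on its sides. The horizontal axis is the distance from the stretch's centre in kb, the colour is the percentile of the region's highest peak among all peaks of that library's list, and triangles are regions that hold a tRNA gene. The regions of the Gse1 stretch span 54.9 kb, those at Ctc1 5.96 kb.

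How leading a stretch was depended on the measure. By the mean value per region, the stretch between Chd2 and Fam174b had order 1, Nr1d1 2 and Mnt 3, and the Gse1 stretch had order 114. By the sum per kb of stretch, the short stretch beyond the start of Irf2bp2 had order 1, Ctc1 5, Mnt 11 and Nr1d1 20, and 4 of the 20 leading stretches stayed among the first 20. By the number of regions, Nr1d1 had order 21. The stretches with the most regions after Gse1 and Nfic were those at Irf2bp2 and Sfi1, with 9 each, and the sums at Sfi1 were 21.7 and 22.3. The longest after Gse1 lay between Slc25a33 and Spsb1, with 40.8 kb and sums of 24.02 and 15.9, between Gm11733 and Tnrc6c, with 40.1 kb and sums of 16.6 and 13.6, at Fbxo31, and at Tgfbi, a gene for a matrix protein, with 38.2 kb and sums of 19.0 and 13.1.

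Of the 249 stretches, 137 overlapped the body of at least 1 protein-coding gene (55.02%, exact 95% interval 48.6 to 61.3), and 26 overlapped more than 1. Under them lay 157 of 21938 coding genes, which is 0.716% of all coding genes. Of the 20 leading stretches, 15 overlapped a coding gene. Genes under a stretch were longer, with a median of 35.2 kb against 17.4 kb for all coding genes, and a longer body is more easily overlapped. Of the 157, 113 had a promoter peak in both libraries (72.0%, interval 64.3 to 78.8), against 54.2% of all coding genes with start sites. Where both libraries had such a peak, the median promoter value was 5.24 in replicate 1 and 3.61 in replicate 2 under stretches, and 5.73 and 3.95 over all such genes. The genes whose start site was nearest to the strongest region of a stretch numbered 238, or 1.08% of coding genes. Of these, 161 (67.6%) had a promoter peak in both libraries. For 90 of the stretches this nearest gene was also under the stretch, and for 50 it was over 50 kb away. Tns1, which encodes tensin, a protein of focal adhesions, had 3 stretches within or across its 214 kb. Gse1, Nfix and Sfi1 had 2 each. The read-through gene model Gm20388, of 4435 kb, overlapped 5 and is counted among the 157.

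The genes of muscle and of its cell types were counted in 19 lists with 422 genes, chosen with earlier results of these data known. Under a stretch lay 19 of the 422 (4.50%), beside 0.716% of all coding genes. The median length of the listed genes was 24.5 kb, against 17.4 kb for all. It was 51.9 kb for the muscle transcription factors and 58.3 kb for the genes of growth, insulin and atrophy signalling. For excitation-contraction it was 34.7 kb, for the circadian list 30.4 kb and for the sarcomere 22.96 kb. A longer body is more easily overlapped. The circadian list had 3 of 17 under a stretch, namely Nr1d1, Cry2 and Per2. In the 4 regions at Cry2, a repressor of the clock, the sums were 14.7 and 9.20, and the stretch had order 129 of 249. There, 1 intronic region had values of 9.22, at percentile 93.9 of all peaks in replicate 1, and 4.97, at percentile 90.6 in replicate 2. The others reached at most percentile 66.5 in replicate 1 and 60.5 in replicate 2. Per2, the partner of Cry2 in repression, had 4 intronic regions with sums of 13.02 and 6.81. Its stretch had order 193, with sums below the medians of all stretches, 13.8 and 10.2. Arntl, which encodes the activator Bmal1, was the nearest gene to a stretch that did not overlap it. The promoter values of Cry2 were 14.5 and 7.50 and those of Per2 11.2 and 9.02, above the medians of all open promoters.

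Of 44 muscle transcription factors, 4 lay under stretches (9.09%, beside 0.716% of all coding genes), among them Nfic, Nfix and Mef2d. Nfix, a nuclear factor I gene that acts in the change from embryonic to fetal muscle, held 2 intronic stretches with sums of 12.3 and 12.1 in replicate 1 and 12.8 and 10.5 in replicate 2. Mef2d, which encodes a MADS-box factor of muscle, had 3 regions upstream and 1 in an intron, with sums of 16.7 and 8.35, and the region at 88138341 had 9.41 and 3.66. Nfia and Tcf12 were nearest to a stretch that did not overlap them.

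Among 33 genes of growth, insulin and atrophy signalling, Fbxo31, Camk2a and Fkbp5 lay under stretches (9.09%, beside 0.716% of all coding genes). Fkbp5, a target of the glucocorticoid receptor that encodes a co-chaperone of it, had the largest difference in rank between the libraries, 70 in replicate 1 and 189 in replicate 2. Its sums were 17.9 and 7.43, and the region at 28512701 had 7.58 in replicate 1, at percentile 91.2, and 2.06 in replicate 2, at percentile 68.4. Camk2a encodes a calcium-dependent kinase, and 1 of the 5 regions of its stretch lay in the gene. The sums were 13.8 and 11.3. Foxo1 and Irs2 were nearest to stretches that did not overlap them.

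Of 45 sarcomere genes, 3 lay under stretches (6.67%, beside 0.716% of all coding genes): Xirp1, Myoz3 and Flnc. Xirp1 encodes Xin, an actin-binding protein. Its stretch had sums of 27.8 and 16.1, and its region at 120011121, beyond the 3′ end of Xirp1, in an annotated exon and 1316 bp from an annotated start, had 14.98 and 7.44. Only the region at 120020381 lay in Xirp1, with values of 2.16 and 1.77. Neither Xirp1 nor Cx3cr1, a chemokine receptor gene of macrophages whose model spans the same stretch, had a promoter peak. At Myoz3, a gene for a Z-disc protein, only 1 of 4 regions lay in the gene and the rest in Synpo, and the sums were 13.8 and 10.2. Flnc, which encodes filamin C of the Z-disc, had 6 regions with sums of 10.8 and 8.24, none above percentile 62.8 in replicate 1 or 63.3 in replicate 2. Of 27 genes of excitation-contraction coupling, Stac3 and Cacna1s lay under stretches (7.41%, beside the same 0.716%). Cacna1s encodes the voltage sensor of the T-tubule and Stac3 an adaptor bound to it. Only 1 of the 4 regions by Stac3 lay in the gene, with values of 1.34 and 1.93, and the highest, with 5.98 and 7.61, was intergenic and 1847 bp from the nearest start site. The sums of that stretch were 11.3 and 13.6, with ranks of 171 and 69, and the Cacna1s sums were 6.09 and 4.81, near the bottom of the order in both libraries (245 and 240).

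The other lists had few or none. The nuclear receptor gene Ppard was the member of 26 oxidative genes, Fmod, a matrix proteoglycan gene, that of 23 fibroblast and tenocyte genes, Cx3cr1 that of 17 blood genes and Rbfox3, a neuronal splicing factor gene, that of 14 neuron genes. No gene of the lists for the sarcolemma, glucose and glycogen, neuromuscular junction, satellite cells, endothelium and smooth muscle, adipocytes and Schwann cells, liver, heart, AP-1 and early response, or limb identity lay under a stretch. The sums were 12.4 and 8.60 at Ppard, where the highest region lay in the neighbour Def6, 14.9 and 10.4 at Fmod, with 1 of 5 regions in the gene, and 7.10 and 7.10 at Rbfox3, which had no promoter peak. At 0.716%, lists of these sizes would hold fewer than 1 gene each, so an empty list does not set it below the background. The interval of the fast myosin heavy chain genes on chromosome 11 held 4 distal regions, of which 2 were joined, so it was no member.

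In 14 stretches, chosen after their values were seen, 2 or more regions held a tRNA gene. tRNA genes are short genes read by RNA polymerase III from promoters inside the gene. Across all stretches, 57 of 1166 regions held a RefSeq tRNA gene (4.89%), against 57 of the 14698 other distal regions (0.388%). The GENCODE start sites did not cover these genes, so the rule counted them as distal. The spans of all 249 stretches held 75 of 403 RefSeq tRNA genes. At Ctc1, a gene for a telomere protein, 7 of 8 regions held a tRNA gene within 5.96 kb, and the sums were 28.5 and 29.6. A further stretch with tRNA genes, with sums of 15.97 and 18.7, followed 20.3 kb on. At Plxdc1 2 of 5 regions and at Btn1a1, a gene of the butyrophilin family, 6 of 8 held a tRNA gene, with sums of 25.01 and 24.2 in replicate 1 and of 23.0 and 17.7 in replicate 2.

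All 14 stretches ranked higher in replicate 2 than in replicate 1, against 109 of the other 235. Their median rank was 64 in replicate 1 and 33 in replicate 2. The regions with a tRNA gene had a median percentile of 67.9 in replicate 1 and 77.8 in replicate 2, and the other regions of stretches 66.3 and 64.9. The region with the tryptophan tRNA gene printed above had 5.01 (percentile 84.4) in replicate 1 and 7.75 (percentile 97.3) in replicate 2. tRNA genes have near-identical copies, and how reads that match several places were handled is not given in the sources used here, so the part of this in the difference was not tested.

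**Figure D3:**
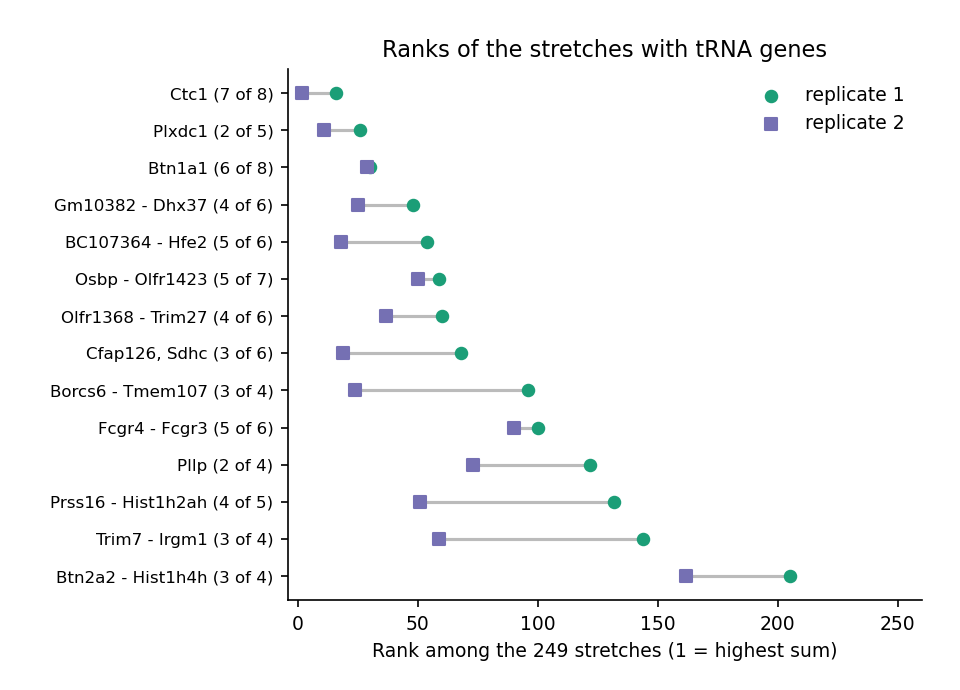
Rank of the 14 stretches with tRNA genes among the 249, by summed value, in replicate 1 (circles) and replicate 2 (squares), with 1 row a stretch, named by the coding genes under it or on its sides, and with the number of regions that hold a tRNA gene of all its regions. Each square lies left of its circle, at a higher rank, with the smallest distance at Btn1a1 (30 and 29).

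Other large differences between the libraries ran in both directions. A stretch of 5 regions between Cebpb and Ptpn1 had sums of 26.7 in replicate 1 (rank 21) and 9.91 in replicate 2 (rank 138). One between Atg10 and Ssbp2 had 11.5 (rank 167) and 14.1 (rank 63), and 1 of the stretches in Tns1 had 16.1 (rank 91) and 7.36 (rank 191). A difference between animals and one between libraries cannot be told apart.

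The regions inside stretches were higher than other distal regions. The rule set no height, but heights and positions come from the same peaks, so this is a description. Their median percentile was 66.5 in replicate 1 and 65.5 in replicate 2, against 52.3 and 50.9 for the other 14698. Above percentile 80 in both libraries at once were 15.6%, against 5.52%. They were also wider, with a median of 229 bp against 200 bp, and richer in G and C (56.8% against 54.4%) and in CpG (2.33 against 1.90 per 100 bp). The regions of the 20 leading stretches reached 3.64 CpG per 100 bp. Within 1 kb of a RefSeq start site lay 13.9% of regions in stretches and 5.76% of the others, and without the regions that hold tRNA genes the share in stretches was 9.47%. In the 20 leading stretches this share was 28.4% of all regions, and 11.2% held a tRNA gene.

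**Figure D4:**
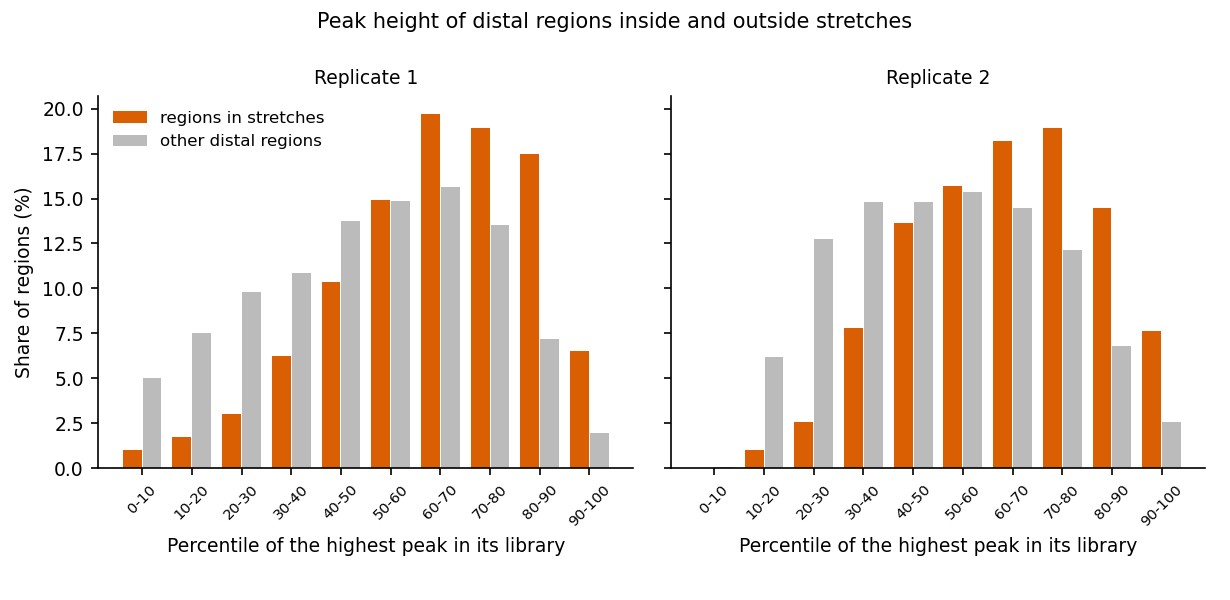
Share of distal regions (vertical axis, %) by the percentile of their highest peak in its library (horizontal axis), for replicate 1 (left) and replicate 2 (right), with the 1166 regions in stretches first and the 14698 other distal regions second in each pair of bars. In the top bin are 6.52% of regions in stretches and 1.95% of the others in replicate 1, and 7.63% and 2.56% in replicate 2.

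Regions in stretches lay between genes somewhat more often: 52.5% were intergenic, 39.9% intronic and 7.63% exonic, against 45.8%, 45.1% and 9.06% of the others. By stretch, 85 were wholly intergenic, 81 wholly within genes, and 83 mixed. Chromosome 11 held 32 stretches, or 26.2 per 100 Mb, and 13.4 coding genes per Mb. Chromosome 7, with a like density of 13.9 genes per Mb, held 22, or 15.1 per 100 Mb. The X chromosome held none, with only 268 distal regions in 171 Mb. Pairs of neighbouring stretches within 100 kb numbered 31.

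Runs of bases that the authors list with a q-value below 0.05 also covered more of the bases between the peaks of a stretch. Their share there was 3.81% in replicate 1 and 8.48% in replicate 2, against 0.389% and 0.592% of bases outside peaks elsewhere. The stretches were chosen for peaks that lie close together, so this is a description. Each library also has a longer peak list, whose further peaks were not set aside. In the spans lay 286 of these in replicate 1 and 354 in replicate 2. Regions found in 1 library only were also placed there: 116 of the 16230 regions of replicate 1 alone (0.715%) and 294 of the 14957 of replicate 2 alone (1.97%) lay in the stretches, which span 0.155% of the chromosomes.

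Footprints did not set the stretches apart. A shared footprint was found in 86.7% of regions in stretches and 87.2% of the others, and there were 7.17 and 7.07 per kb of open region.

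The motif shares differed most for CTCF, the protein that holds chromatin loops and domain borders. In the central 150 bp, its core was matched in 18.4% of regions in stretches (exact 95% interval 16.3 to 20.8) and 25.9% of other distal regions. The TTGGCA motif of nuclear factor I was matched in 13.04% (11.2 to 15.1) and 16.9%, the Runx motif TGTGGT in 8.15% (6.64 to 9.87) and 10.97%, and the E-box CAGGTG in 10.9% (9.16 to 12.8) and 13.5%. In this window these 4 shares were lower in stretches, and in each the interval lay below the share of the others. The CAGCTG E-box was matched in 21.6% (19.3 to 24.1) and 21.5%, the MCAT motif in 10.1% (8.45 to 11.996) and 9.10%, AP-1 (TGANTCA) in 7.80% (6.33 to 9.50) and 7.93%, and MEF2 in 0.858% (0.412 to 1.57) and 0.884%. The forkhead motif was matched in 2.14% (1.39 to 3.15) and 1.53%. CACGTG, which was searched after the Nr1d1 sequence had been read, was matched in 4.37% (3.27 to 5.71) and 3.27%, and the D-box in 0.858% (0.412 to 1.57) and 0.796%. Over the full width of the regions, which differs between the sets, the Runx and CAGGTG intervals held the share of the others: Runx was matched in 15.4% (13.4 to 17.6) and 15.7%, and CAGGTG in 17.9% (15.8 to 20.2) and 18.2%. There the TTGGCA motif was matched in 19.6% (17.3 to 21.9) and 22.5%, the CTCF core in 23.3% (20.9 to 25.9) and 28.8%, CAGCTG in 33.0% (30.3 to 35.8) and 29.2%, and CACGTG in 7.12% (5.71 to 8.75) and 4.75%. The 4 remaining motifs, the Srf box, the nuclear receptor motif AAGGTCA, the glucocorticoid receptor core ACANNNTGT and the MEF3 motif TCAGGTT, were matched in the central 150 bp of 0.772% to 4.20% of regions in stretches and 0.694% to 4.36% of the others. The palindrome of nuclear factor I, TTGGC and GCCAA with 5 bases between them, was in none of the 1166 regions, which allows a share of up to 0.316% by the exact interval, and in 0.109% of the others. Both strands were searched, and the intervals cover counting error only, since neighbouring regions are not independent.

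**Figure D5:**
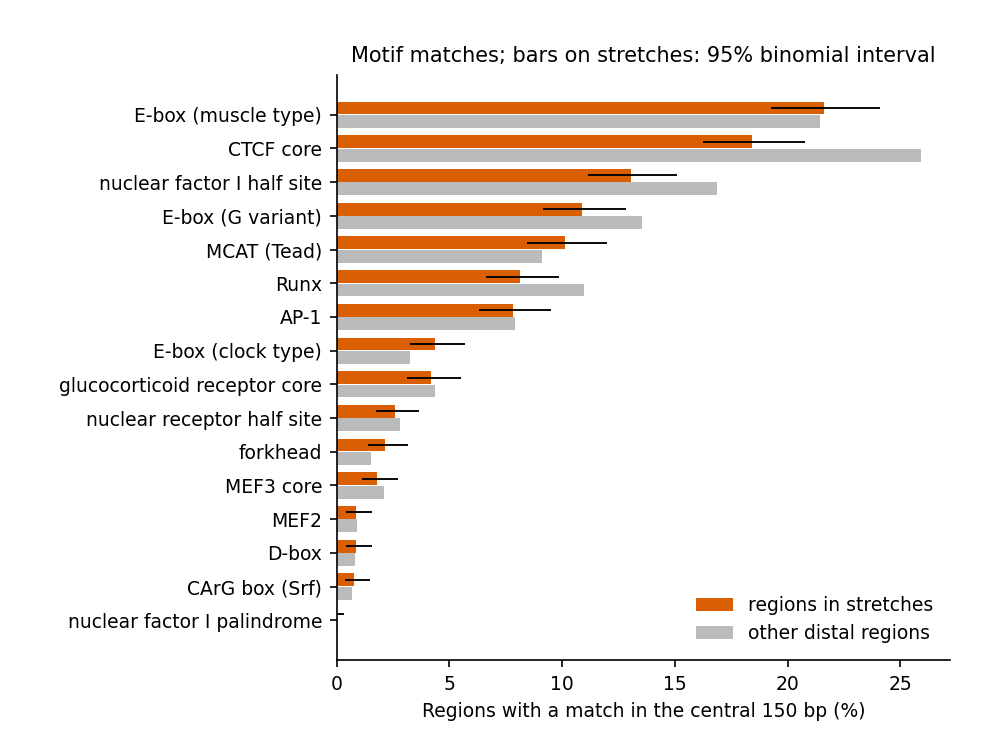
Share of regions with a match to each motif in their central 150 bp (horizontal axis, %), for the 1166 regions in stretches (upper bar, with the exact 95% binomial interval) and the 14698 other distal regions (lower bar). The CTCF core was matched in 18.4% and 25.9%, and the muscle-type E-box in 21.6% and 21.5%.

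Some members rest on how regions were drawn. In 6 stretches, 1 or more regions consisted mostly of 32-base words that occur again in the genome, where reads cannot be placed with certainty. Among these were both stretches at Sfi1 and the one between Slc25a33 and Spsb1, with 1 region each, the one on the Y chromosome, with 3 of 6, and a stretch near Gm15319, with 4 of 4. In 2 stretches under 2 kb, neighbouring regions nearly touched, and the shortest, 1.28 kb between Ndfip1 and Spry4, was 92.2% open. Close regions also counted in others: with regions closer than 500 bp counted as 1, 177 stretches were left, against 249. None was then left at Ctc1, Plxdc1 or Mnt. Of the 20 leading stretches, 11 stayed among the first 20 when RefSeq start sites were added. Those at Kdm6b, Ctc1, Tex44, Plxdc1, Mnt and Btn1a1 then fell below 4 regions, and Zfp503, Foxk1 and Irf2bp2 left the first 20.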

How the data were processed

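Peaks, footprints and cut-rate runs were deposited for each library separately on mm10, the GRCm38 build, per the labels and the deposited file listing. Neither label nor file header names the aligner or the callers. The peak value is a signal the authors computed in a unit that is not stated, and the depth of either library is unknown. The footprint files carry a score of 0.01 on every line as deposited, so their positions alone were used. The cut-rate files as deposited list runs of bases with a q-value below 0.05.

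From the shorter list of each library (50760 peaks in replicate 1 and 49230 in replicate 2), peaks that overlapped by at least 1 bp were merged, set against 132629 GENCODE start sites, and joined. A region's value in a library was the sum of its peaks there, its percentile that of its highest peak, and a promoter peak lay within 500 bp of a coding start site. Gene bodies came from GENCODE, and tRNA genes, further start sites and sequence from RefSeq and the reference genome of that build. The procedure was tested on simulated data. Python 3.11.15, numpy 2.4.6, pandas 2.3.3, scipy 1.17.1, numba 0.67.0 and matplotlib 3.10.9 were used.

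Both samples form 1 group, so no condition was compared and no p-value is given. Named are the 20 leading stretches with the coding genes under them or, with none, on each side, the 5 with the most regions, the 5 longest, the 5 with the largest difference between ranks, and up to 4 members of each gene list. The stretches, gene lists and rules were chosen with earlier results of these data known. The tRNA stretches, those near Irf2bp2, Irf2bpl and Ski outside the leading 20, those with repeated words or under 2 kb, and the motifs CACGTG and TTANGTAA were singled out after values or sequences were seen. Results for 2 genes under stretches are not reported here. Alternatives changed the gap, the distance to start sites, the start-site set, the peak lists, the overlap, the number of regions, the ranking and the libraries used. The labels give the libraries as biological replicates with differently numbered males and 1 shared donor entry, so the spread between them may be technical.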

Additional observations from a re-analysis of the deposited data

How the results depend on the processing

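The number and extent of the stretches followed the rule closely. The stretches at Nr1d1, by Socs3 and at Morn1 and Ski each stayed among the 20 leading places in 15 of 16 settings of the rule. Others were less stable. The stretch at Irf2bp2 stayed in 4 settings, those at Mnt and Foxk1 in 5, at Plxdc1 in 6 and at Btn1a1 in 7. The one between Hes1 and Cpn2 stayed in 8, and that between Chd2 and Fam174b in 9. In the setting with reciprocal overlap of peaks by 50%, no stretch was left at Nr1d1, the leading member. With a gap of 5 kb none was left by Socs3. Without replicate 1, the stretch at Morn1 and Ski had order 34. Ranked by number of regions, Nr1d1 had order 21. With a gap of 5 kb, 74 stretches with 2.09% of distal regions were left, 33.8% over a coding gene, with 0.128% of coding genes under them and 7 of the 20 leading stretches. A gap of 25 kb gave 561, 17.8%, 70.4%, 2.78% and 7 for the same measures. A distance of 2.5 kb from start sites gave 163, 5.54%, 45.4%, 0.365% and 11. There the Nfic stretch had order 160 and Ltbp4 41, and none was left at Plxdc1, at Mnt or between Chd2 and Fam174b. At 500 bp, 308 stretches held 8.50% of regions, 62.01% of the stretches lay over a coding gene, and 1.05% of genes lay under them. Coding start sites alone gave 367 stretches, 9.64% of regions, 1.203% of genes and 12 leading stretches. Reciprocal overlap of peaks by 50% gave 131 stretches, 4.47%, 0.410% and 12. Peaks above the median gave 89, 6.11% and 0.287%, and the longer lists 982, 15.97% and 3.04%. A minimum of 3 regions gave 727, 16.4% and 1.97%, and of 5 regions 94, 3.44% and 0.292%. Ranking by mean, sum per kb or number kept 9, 4 and 10 leading stretches.

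Using 1 library alone gave 912 to 994 stretches, with 15.7% to 31.1% of regions, 59.3% to 66.3% over a coding gene, 2.68% to 3.61% of genes, 9 to 12 leading stretches and a footprint in 96.8% to 97.3% of regions, since regions and footprints then need no partner. Of 4 alternatives chosen after seeing the data, leaving out tRNA regions gave 234 stretches with 6.88% of regions. RefSeq start sites gave 192 stretches, 5.96% of regions, 0.565% of genes and 11 leading stretches. Regions within 500 bp counted as 1 gave 177 stretches, 5.22% of regions, 62.1% over a coding gene and 0.593% of genes. Leaving out repeated words moved none of these measures beyond its spread. No paired analysis was possible because no result comes from a test. With depth unknown, stretches with weaker regions may be missing from either list.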
